A study of Mus musculus with 6 samples.

Results

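The VEGF and angiopoietin system of the mouse retina was described here through 10 genes: the ligand genes Vegfa, Vegfb, Vegfc, Pgf, Angpt1 and Angpt2 and the receptor genes Flt1, Kdr, Nrp1 and Tek. They were chosen by name, with every probe set that the platform annotation assigns to a member alone. This gave 21 probe sets of the 45037 tested, 11 for the ligands and 10 for the receptors, and 10 of the 18193 genes measured. A probe set is a group of short oligonucleotides on an Affymetrix array that together read 1 transcript or several of a gene.

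Retinal RNA came from BALBc mice, an inbred albino strain, all of which had first been kept in the dark for 1 week. In the light damaged group, 6 h of white fluorescent light at 6000 lux followed, an exposure that injures photoreceptors, and retinas were taken 24 h after the damage. The dark adapted group received no such light. Each group was measured on 3 arrays, and the question was how the retina's transcripts differ after the damage. The labels give no number of animals per sample and no age or sex, and do not say that the replicates were separate animals, so each p-value reflects the variation among these arrays alone, part of which may be technical. The values are log2 expression values with medians between 6.15 and 6.18 on the 6 arrays; having 3 arrays per group limits how precise any value is.

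Vascular endothelial growth factors are secreted proteins that make blood vessels grow, survive and leak. VEGF-A, the product of Vegfa, acts mainly through the receptor tyrosine kinase VEGFR2 (Kdr), while VEGFR1 (Flt1) binds VEGF-A, VEGF-B and placental growth factor and in its soluble form holds ligand away from VEGFR2. Angiopoietin 1 activates the endothelial receptor TIE2 (Tek) and keeps vessels quiet, and angiopoietin 2 can oppose it. In the retina, glia and neurons make much of the VEGF-A to which the vessels respond.

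No member passed the test, neither a ligand nor a receptor. At an adjusted p under 0.05 (limma, Benjamini-Hochberg over all probe sets) 0 of the 21 member probe sets were called, where 1.02% of all probe sets were. At an unadjusted p under 0.05 there were 4 of the 21 member probe sets (19%), against 8.73% of all probe sets in either direction. They were that of Kdr and 3 of the 4 of Nrp1, all with higher values in light damaged retinas. Counted by the probe set of highest mean per gene, this was 1 of the 10 members (10%), beside 11% of all genes. The arrays of the 2 groups deviated together by replicate number, and with that number as a block 1 member probe set was called, a probe set of Nrp1, where 4.68% of all probe sets were. The ligands' 11 changes lay between -0.19 and 0.20 and the receptors' 10 changes between -0.24 and 0.71 (log2, light damaged minus dark adapted). Their medians were 0.07 and 0.30, beside 0.01 over all probe sets. The 4 probe sets of Nrp1 are not independent readings, so the receptor median rests largely on that gene. With 1 probe set per gene, the one of highest mean, the medians were 0.05 for 6 ligands, 0.11 for 4 receptors and 0.03 for all genes.

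**Figure D1:**
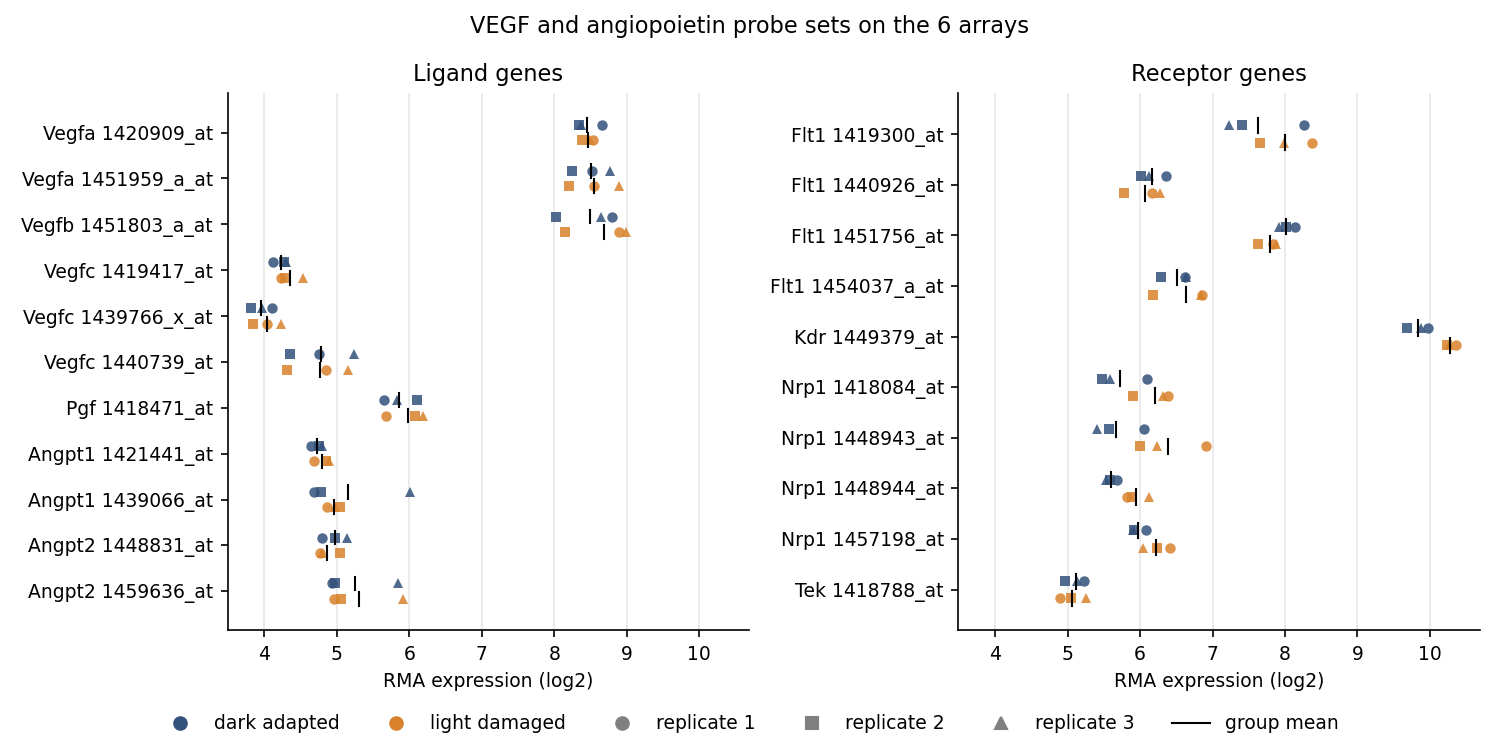
Each point is 1 array's RMA expression (log2, horizontal axis) for a probe set of a ligand gene (left) or receptor gene (right), in blue for dark adapted and orange for light damaged retinas, with the replicate number as the shape and the group mean (n = 3) as a black line. For Kdr the 3 light damaged points (10.24 to 10.36) sit to the right of the 3 dark adapted points (9.68 to 9.97), while both groups overlap for every ligand probe set.

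In bulk RNA, a change in the number of vessel cells and a change in RNA per cell cannot be told apart. The groups did not overlap in 3 of the 21 member probe sets (Kdr and an Nrp1 probe set higher, an Flt1 probe set lower), which is 14.3%, beside 13.2% of all probe sets, so this share is near that of the array as a whole. The 3 same-numbered pairs differed in 1 direction in 11 of the 21 (52.4%), beside 42.1% of all probe sets, so such agreement is common.

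Kdr and Nrp1, whose probe sets were those with an unadjusted p under 0.05, are shown with the stretch of genome before their starts, beside that of Vegfa, whose values hardly differed. The sequences are RefSeq's (GRCm38.p6), 250 bases up to the listed start, read 5′ to 3′ on the gene's strand: Kdr at chr5:75978456-75978705 (minus), Nrp1 at chr8:128358823-128359072 (plus) and Vegfa at chr17:46032378-46032627 (minus, the first of 2 listed starts). Capitals mark GGGCGG on either strand, the GC box that Sp1-type factors bind.
Kdr: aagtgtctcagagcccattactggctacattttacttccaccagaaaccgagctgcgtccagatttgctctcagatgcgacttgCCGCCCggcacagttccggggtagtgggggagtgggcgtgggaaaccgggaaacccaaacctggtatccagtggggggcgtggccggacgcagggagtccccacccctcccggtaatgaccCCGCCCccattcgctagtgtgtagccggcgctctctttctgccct
Nrp1: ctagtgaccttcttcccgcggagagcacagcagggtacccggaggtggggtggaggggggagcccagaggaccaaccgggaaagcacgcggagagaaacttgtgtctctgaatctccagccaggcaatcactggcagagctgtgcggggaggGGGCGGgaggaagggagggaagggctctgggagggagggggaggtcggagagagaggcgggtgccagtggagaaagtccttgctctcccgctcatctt
Vegfa: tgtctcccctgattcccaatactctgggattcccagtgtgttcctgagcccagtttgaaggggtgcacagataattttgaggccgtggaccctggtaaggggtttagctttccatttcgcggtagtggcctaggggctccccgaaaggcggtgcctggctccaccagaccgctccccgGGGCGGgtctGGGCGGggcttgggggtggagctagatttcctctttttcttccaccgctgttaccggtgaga
The window of Kdr held 2 matches, that of Nrp1 1 and that of Vegfa 2, and 32.7% of all 32851 windows of this length held at least 1. ACGTG on either strand, the core of the site of hypoxia inducible factors, was in none of the 3 windows and in 16.6% of all windows. Sequence farther from the starts was not searched, so this does not show that a gene lacks such a site. The window of the second Vegfa start (chr17:46025164-46025413, minus, not printed) held 1 match to ACGTG and 1 to GGGCGG. That start lies downstream of the first on the gene's strand, and whether its window acts as a promoter was not tested. The 3 windows thus share a common promoter element, which says nothing on whether a factor binds there, and no binding was measured. Of the 10 members, 8 had a window in the table.

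Vegfa, the main angiogenic ligand, was alike in both groups on each of its 2 probe sets. Probe set 1451959_a_at read 8.52, 8.25 and 8.77 in dark adapted replicates 1, 2 and 3, and 8.55, 8.21 and 8.90 in light damaged replicates 1, 2 and 3. The groups overlapped, and in both groups replicate 2 was the lowest and replicate 3 the highest. The change was 0.04 ± 0.21 (SE, limma adjusted p = 0.994), with a 95% interval of -0.45 to 0.53. The other probe set, 1420909_at, gave 8.66, 8.34 and 8.37 against 8.53, 8.39 and 8.50, a change of 0.02 ± 0.13 (SE, limma adjusted p = 0.996). Its interval, -0.29 to 0.33, leaves room for at most a 1.26-fold rise or a 1.23-fold fall. The sign of both small changes turned when arrays were centred on reference genes (-0.18 and -0.20) or quantile normalized again (-0.09 and -0.10), so no direction is given.

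Vegfb and Pgf encode ligands that bind VEGFR1 and not VEGFR2. Vegfb (1451803_a_at) read 8.80, 8.02 and 8.64 in dark adapted and 8.90, 8.15 and 8.99 in light damaged replicates 1, 2 and 3. The spread between replicates (SD 0.41 and 0.46, n = 3 each) was larger than the change of 0.20 ± 0.28 (SE, limma adjusted p = 0.952). The light damaged value was the higher in each same-numbered pair, by 0.10, 0.14 and 0.35, and with the replicate block the interval narrowed to -0.05 to 0.44 (limma adjusted p = 0.366). Pgf (1418471_at), the gene of placental growth factor, read 5.65, 6.11 and 5.83 against 5.68, 6.08 and 6.19. Light damaged replicate 3 was the highest of the 6 arrays and the groups otherwise coincided (change 0.12 ± 0.18, SE, limma adjusted p = 0.957).

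Vegfc, a lymphatic growth factor gene, was near the bottom of the measured range. Its 3 probe sets stood at the 2.12th to 28.1th percentile of the arrays' probe sets, and their changes were -0.01, 0.07 and 0.12. Probe set 1440739_at, the brightest, read 4.75, 4.36 and 5.24 in dark adapted and 4.85, 4.31 and 5.16 in light damaged replicates 1, 2 and 3, again with replicate 2 lowest in both groups. RMA compresses differences of such dim probe sets, so a change of Vegfc was not detectable at this level and is not shown to be absent.

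The angiopoietin genes were dim as well and the 2 probe sets of each gene gave small changes of opposite sign. Angpt1, whose product activates TIE2, read 4.64, 4.76 and 4.79 against 4.68, 4.85 and 4.89 on 1421441_at (change 0.07 ± 0.12, SE, limma adjusted p = 0.965). On 1439066_at it read 4.69, 4.78 and 6.01 against 4.87, 5.05 and 4.97, where dark adapted replicate 3 alone stood high. The change there was -0.19 ± 0.33 (SE, limma adjusted p = 0.964) and 0.23 without that array. Angpt2, made by endothelial cells of remodelling vessels, read 4.93, 4.97 and 5.84 against 4.96, 5.06 and 5.92 on 1459636_at. Here the number 3 array of each group stood apart from the other 2 while the groups matched (change 0.07 ± 0.32, SE, limma adjusted p = 0.994). With the replicate block its interval was -0.16 to 0.29. The second Angpt2 probe set, 1448831_at, read 4.79, 4.97 and 5.14 against 4.77, 5.05 and 4.79, with overlapping groups (change -0.10 ± 0.15, SE, limma adjusted p = 0.957).

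Kdr, the main signalling receptor for VEGF-A, had the smallest p of all members but did not pass the test. Its probe set 1449379_at read 9.97, 9.68 and 9.88 in dark adapted replicates 1, 2 and 3 and 10.36, 10.24 and 10.26 in light damaged ones. All light damaged values lay above all dark adapted ones, and the same-numbered pairs differed by 0.39, 0.56 and 0.37. The change was 0.44 ± 0.13 (SE), a 1.36-fold higher level with a 95% interval of 1.10-fold to 1.67-fold. Its unadjusted p of 0.00928 in limma ranked 1624 among all probe sets, and the adjusted p was 0.257. With the replicate block the adjusted p was 0.0575 in limma, which also missed the threshold. The change was smaller on arrays centred on reference genes (0.22) or quantile normalized again (0.29).

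Nrp1 encodes neuropilin 1, which binds VEGF-A and helps it to signal through VEGFR2, and which is also a receptor for class 3 semaphorins on axons. All 4 of its probe sets had higher means in light damaged retinas. Probe set 1448943_at read 6.05, 5.57 and 5.40 in dark adapted and 6.91, 6.00 and 6.23 in light damaged replicates 1, 2 and 3. The lowest light damaged value lay just below the highest dark adapted one, so the groups overlapped, yet each light damaged array exceeded its same-numbered partner, by 0.85, 0.43 and 0.83. The change of 0.71 ± 0.27 (SE, a 1.63-fold higher level) did not pass over all probe sets (limma adjusted p = 0.455). With the replicate block it did, with limma adjusted p = 0.0215 and a 95% interval of 0.43 to 0.99.

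The other Nrp1 probe sets differed less. Probe set 1418084_at read 6.09, 5.48 and 5.59 against 6.38, 5.90 and 6.32 (change 0.48 ± 0.20, SE, limma adjusted p = 0.561, and 0.0715 with the replicate block). On 1448944_at the values were 5.68, 5.58 and 5.53 against 5.82, 5.89 and 6.13, without overlap (change 0.35 ± 0.13, SE, limma adjusted p = 0.464). The brightest, 1457198_at, read 6.08, 5.92 and 5.90 against 6.41, 6.23 and 6.04, with overlap (change 0.26 ± 0.14, SE, limma adjusted p = 0.740). In each of the 4 probe sets the light damaged array was the higher in all 3 same-numbered pairs. The 4 are not independent readings, and 42.1% of all probe sets had 1 sign in all 3 pairs. The mean of the 4 probe sets changed by 0.45 (limma adjusted p = 0.258). The sizes therefore ran from 1.20-fold to 1.63-fold depending on the probe set. On arrays centred on reference genes the 4 changes were 0.26 (1418084_at), 0.49 (1448943_at), 0.13 (1448944_at) and 0.04 (1457198_at).

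Flt1, the gene of VEGFR1, gave opposite signs on its 4 probe sets. Probe set 1451756_at read 8.14, 8.01 and 7.92 in dark adapted and 7.84, 7.63 and 7.88 in light damaged replicates 1, 2 and 3. All light damaged values lay below all dark adapted ones, replicate 3 by the least (pair differences -0.30, -0.37 and -0.04), with a change of -0.24 ± 0.13 (SE, limma adjusted p = 0.748). Probe set 1419300_at read 8.26, 7.40 and 7.23 against 8.37, 7.66 and 7.99, higher in each same-numbered pair but with wide overlap (change 0.37 ± 0.29, SE, limma adjusted p = 0.874). The remaining probe sets, 1454037_a_at and 1440926_at, changed by 0.11 and -0.09. Flt1 is known to give membrane-bound and soluble transcripts, and the tables used here do not say which of them each probe set reads. The mean of the 4 probe sets changed by 0.04 (limma adjusted p = 0.987).

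Tek, the TIE2 receptor gene, stood at the 22nd to 29.8th percentile of the arrays' probe sets. Its single probe set 1418788_at read 5.22, 4.97 and 5.13 against 4.89, 5.05 and 5.26. The groups overlapped, and the pairs differed in both directions (-0.33, 0.08 and 0.13; change -0.04 ± 0.14, SE, limma adjusted p = 0.990).

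**Figure D2:**
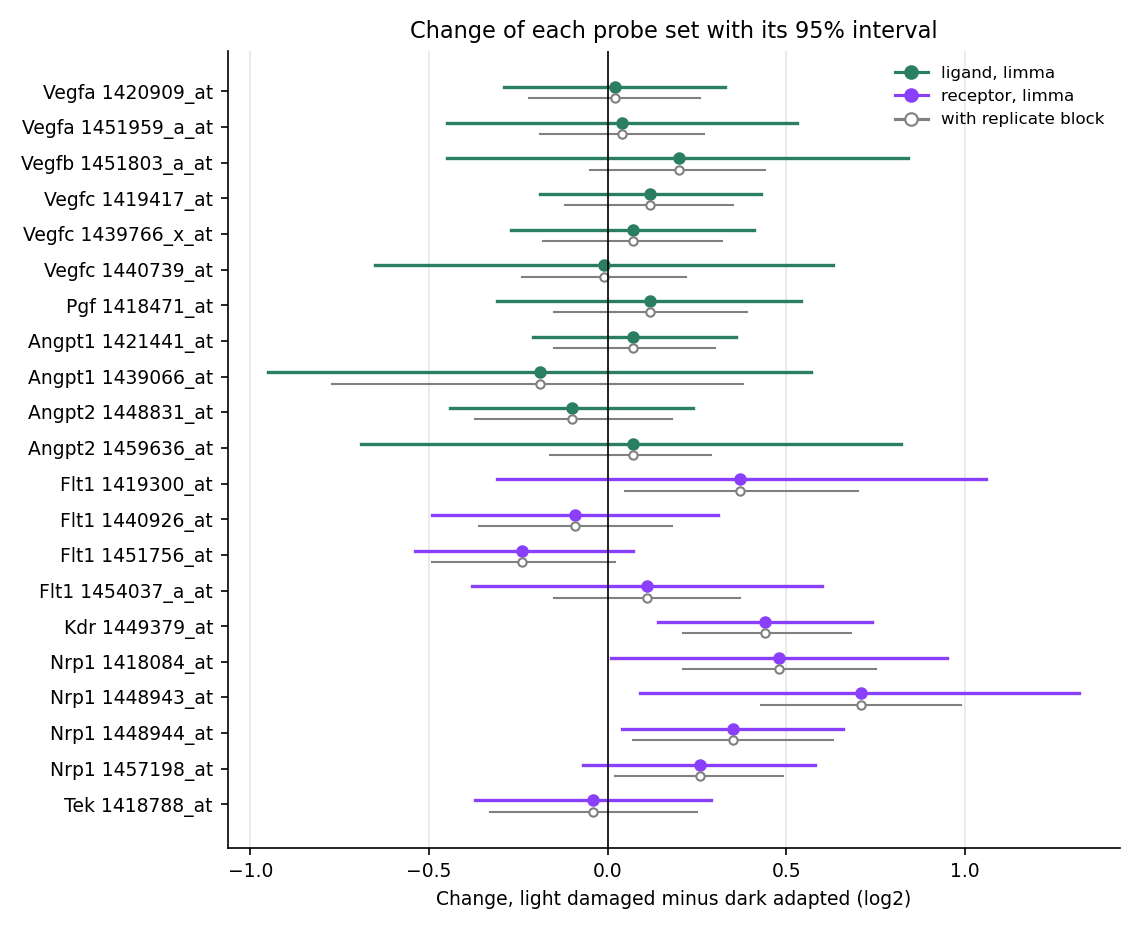
Each row shows a probe set's change (light damaged minus dark adapted, log2, horizontal axis) with its 95% interval, in green for ligands and purple for receptors from the limma fit, and in grey from the fit with the replicate number as a block (n = 3 arrays per group). The intervals of all ligand probe sets span 0 in both fits, and those of Kdr and 3 Nrp1 probe sets lie above 0 in both, before adjustment for the number of probe sets.

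Ligands were set against receptors as the difference of their log2 values within each array, for 7 pairs of genes, each gene by its probe set of highest mean. Such a difference shows unequal change of the 2 probe sets and not which transcript is more abundant. Vegfa minus Kdr was -1.44, -1.42 and -1.12 in dark adapted and -1.81, -2.03 and -1.35 in light damaged replicates 1, 2 and 3. It was lower in each light damaged array than in its same-numbered partner, by a mean of -0.40, although the groups overlapped. Vegfb minus Flt1 went from 0.66, 0.01 and 0.72 to 1.06, 0.52 and 1.11 (mean difference 0.43), Pgf minus Flt1 from a mean of -2.16 ± 0.30 to -1.80 ± 0.32 (SD, n = 3), and Vegfa minus Flt1 from 0.49 ± 0.31 to 0.77 ± 0.23 (SD, n = 3). Each of these 3 was higher in all 3 light damaged arrays than in their partners.

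No pair passed a test, but this design could not have given a p under 0.05 for any of the 7. The exact two-sided permutation p was 0.3 for each of these 4 pairs, and 0.525 after Benjamini-Hochberg adjustment over the 7, and the smallest p this design allows is 0.1. Within same-numbered pairs, where the differences of these 4 were each of 1 sign, the smallest possible exact p is 0.25. The 3 differences with Flt1 rest on the probe set of Flt1 that was lower, and with the mean of all 4 Flt1 probe sets they were 0.16, 0.08 and -0.01. Vegfa minus Nrp1 differed by -0.22 (exact permutation p = 0.5), and -0.42 with the mean of the probe sets of each gene. For the angiopoietins, Angpt2 minus Angpt1 was 0.25, 0.19 and -0.17 in dark adapted and 0.09, 0.01 and 0.95 in light damaged replicates 1, 2 and 3, so the mean difference of 0.26 came from number 3 alone. Angpt2 minus Tek differed by 0.11 (exact permutation p = 0.7).

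**Figure D3:**
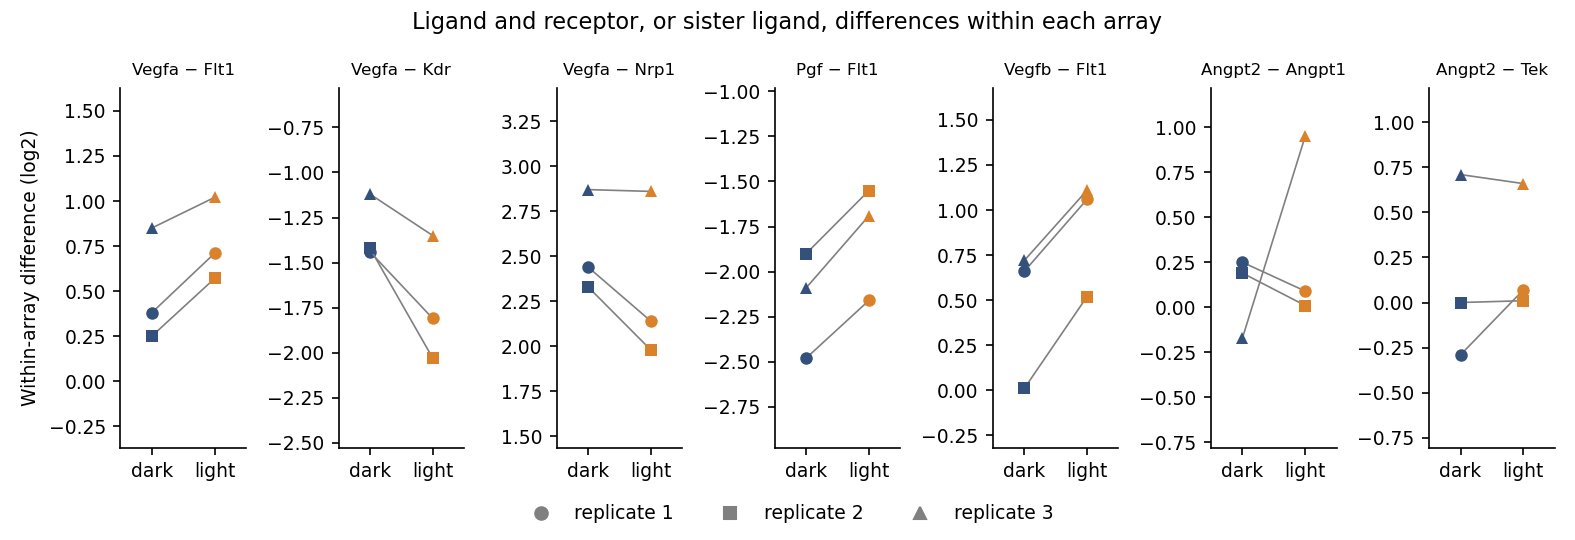
Each panel plots the difference between 2 genes' log2 values within an array (vertical axis, spans of equal size) for the 3 dark adapted and 3 light damaged arrays, with lines joining arrays of the same replicate number. Vegfa − Kdr falls along all 3 lines (means -1.33 and -1.73) and Vegfb − Flt1 climbs along all 3 (means 0.46 and 0.90), while the groups overlap in each panel.

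Genes around the pathway were read from lists, each gene by its probe set of highest mean, where 1.46% of the 18193 genes were called. The median change of all genes was 0.03. None of 12 further VEGF family, semaphorin and plexin genes passed, with Plxnd1, a semaphorin receptor gene of endothelial cells, having the smallest p (0.62, limma adjusted p = 0.215). None of 9 further angiopoietin and Tie genes passed either (median -0.02, Angptl4 at 0.31 with limma adjusted p = 0.752). Of 18 genes that act downstream of VEGF receptors none passed, and with the replicate block Akt1, a survival kinase, rose (0.65, limma adjusted p = 0.22, and 0.0181 with the block), while another of its probe sets changed by -0.14.

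Hypoxia is the best known inducer of Vegfa. None of 10 genes of oxygen sensing and the HIF subunits passed (median -0.01), with Egln2, a prolyl hydroxylase gene, at 0.32 (limma adjusted p = 0.574). None of 16 hypoxia response genes passed, and the median was -0.12. Of the 16 changes 12 were negative, beside 7815 of those of all 18193 genes, and which cells gave these values was not tested. The smallest p among the 16 was that of Hmox1, heme oxygenase 1, which oxidative stress also induces. Its change was 0.88 (limma adjusted p = 0.445, and 0.0348 with the replicate block).

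Among 3 lists of other vessel signals 1 gene passed the test. In the list of 10 norrin and Wnt genes, Ndp, whose product norrin acts through the receptor FZD4 on retinal vessels, rose 2.08-fold, from 5.87 ± 0.25 to 6.93 ± 0.23 (SD, n = 3; limma adjusted p = 0.0436), and 9 did not pass. This call was lost without any 1 of the 6 arrays (limma adjusted p 0.0564 to 0.166) and on reference-centred arrays (0.247). None of 10 Notch genes passed (6 changes positive and 4 negative, Notch1 at 0.54 with limma adjusted p = 0.384). With the replicate block Notch1 and Hey2 rose (limma adjusted p = 0.0356 and 0.0295). Hey2 was dim, reading 4.65, 4.06 and 4.24 in dark adapted and 5.78, 4.74 and 4.71 in light damaged replicates 1, 2 and 3. Jag1 changed by -0.69 (limma adjusted p = 0.456), and by -1.27 on another of its probe sets. As the mean of a gene's probe sets, 1 of the Notch genes was called lower. Of 10 antiangiogenic factor genes none passed, with Timp3, a metalloprotease inhibitor that also blocks VEGF-A from VEGFR2, at 0.71 (limma adjusted p = 0.0776). Sparc, a matrix protein gene, rose with the replicate block (0.57, limma adjusted p = 0.777, and 0.0237 with the block), while another of its probe sets changed by -0.24. Timp3 passed with the replicate block (0.0151) and, with fewer features tested, by 1 probe set per gene (0.0495) and as the mean of its probe sets (0.0413).

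No marker of endothelial cells or pericytes passed the test. The defining endothelial genes Pecam1, Cldn5 and Cdh5 changed by 0.27, 0.25 and 0.02 (limma adjusted p = 0.66, 0.682 and 0.994). Of 21 endothelial markers none passed, 14 were positive and the median was 0.09. Their summed level (log2 of the sum of linear values) was 11.04 to 11.09 on the dark adapted and 11.09 to 11.16 on the light damaged arrays. No marker lay below the lower quartile of probe sets on all 6 arrays, but some did on part of them. Cdh5 read 4.99 on dark adapted replicate 2, where that quartile was 5.11, so its small change is that of a dim probe set. Slco1c1, a thyroid hormone transporter gene of brain endothelium, had the smallest p, with lower values after damage (-0.76, limma adjusted p = 0.081), and fell with the replicate block (0.0311) and as the mean of a gene's probe sets, with fewer features tested (0.0362). None of 12 pericyte and mural cell markers passed (median 0.05, Vtn at -0.51 with limma adjusted p = 0.672). Vtn, with a dark adapted mean of 11.85, was far brighter than the next of the 12, Rgs5 at 8.89. Which cells gave the values of Vtn was not tested. In the list of 12 endothelial activation and tip cell genes Lgals1 (galectin 1) and the metalloprotease gene Adamts1 rose 5.22-fold and 2.78-fold (limma adjusted p = 0.0067 and 0.00771), and 10 did not pass. Vcam1, a leukocyte adhesion molecule gene, rose too with the replicate block (0.87, limma adjusted p = 0.125, and 0.00907 with the block). Lgals1 and Adamts1 are also made by other cells, and both lost the call without light damaged replicate 3 (limma adjusted p = 0.059 and 0.0584).

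**Figure D4:**
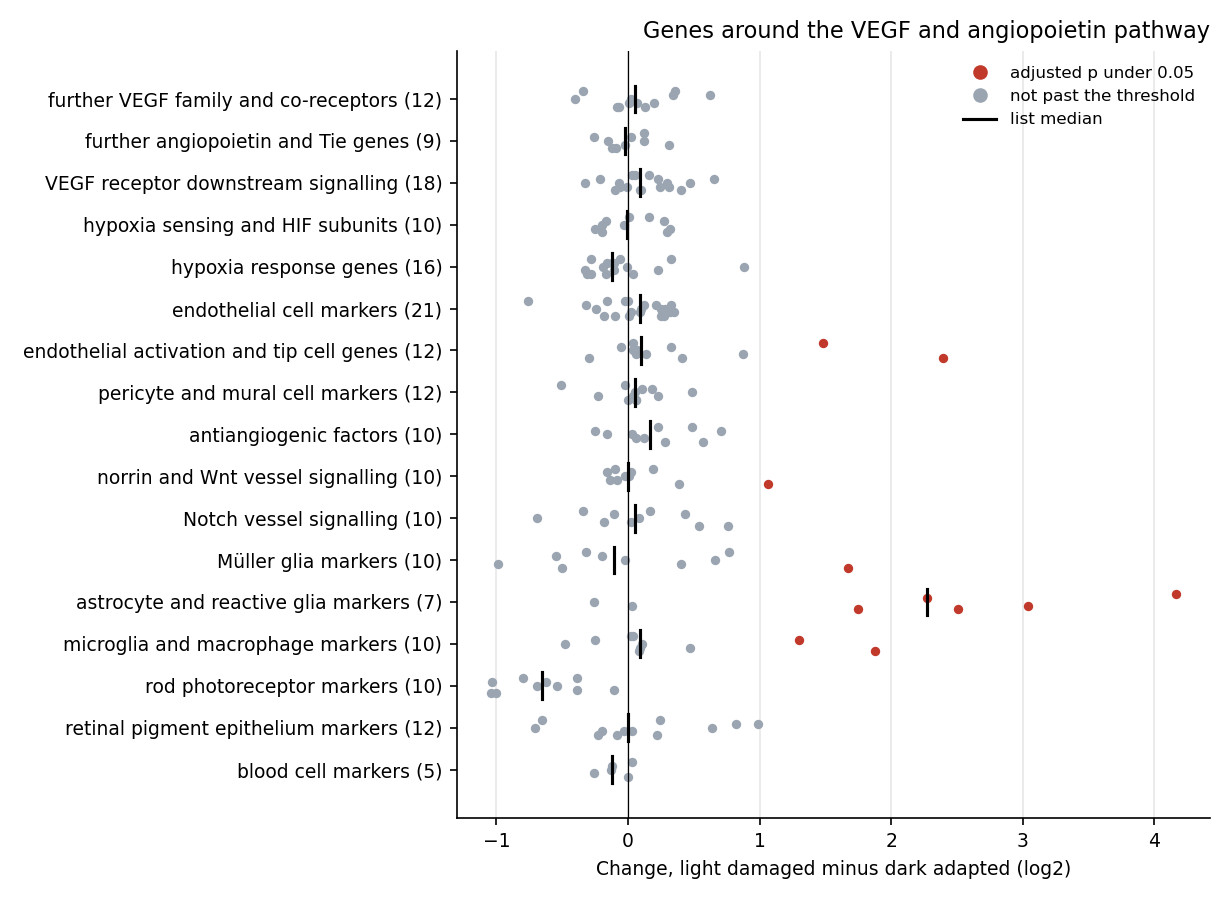
Each point is a gene's change (light damaged minus dark adapted, log2, horizontal axis) by its probe set of highest mean, in red where limma's adjusted p was under 0.05. The rows are lists with the number of genes measured, and black bars are medians. The VEGF, angiopoietin, hypoxia, endothelial marker and pericyte rows hold no red point and medians between -0.12 and 0.09, while 5 of 7 astrocyte and reactive glia genes are red.

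Among markers of other retinal cells, some passed the test for reactive glia, Müller glia and microglia, and none for rods, pigment epithelium or blood cells. Of 7 astrocyte and reactive glia genes 5 rose, led by Lcn2 (17.9-fold), Osmr (8.24-fold) and Serpina3n (5.69-fold), although another Osmr probe set changed by -0.12, and their summed level went from 9.22 to 9.47 on dark adapted to 11.59 to 11.81 on light damaged arrays. Of 10 Müller glia markers Vim rose 3.18-fold and 9 did not pass (summed level 13.46 to 13.82 and 13.47 to 13.83). With the replicate block Kcnj10 (0.77) and Slc1a3 (0.66) rose as well and Glul fell (-0.99), with limma adjusted p of 0.00822, 0.0198 and 0.00483. Another Slc1a3 probe set changed by 0.01, and the other of Glul by -1.23. Müller glia markers called lower also numbered 1 after quantile normalization again, on reference-centred arrays and with the mean of a gene's probe sets. Of 10 microglia and macrophage markers Cd68 and Lyz2 rose (3.68-fold and 2.47-fold) and 8 did not pass, with summed levels of 9.64 to 9.92 and 10.10 to 10.26. Cd68 lost the call without light damaged replicate 3 (limma adjusted p = 0.0512), and Lyz2 lost it without dark adapted replicate 2 or 3 or light damaged replicate 2 or 3 (up to 0.0844) and on reference-centred arrays (0.143). The microglial receptor gene P2ry12 fell with the replicate block (-0.48, limma adjusted p = 0.289, and 0.0394 with the block). Of 10 rod markers (bright here, with Sag at 13.49 ± 0.11 and Gnat1 at 13.45 ± 0.05 in dark adapted retinas, SD, n = 3) none passed, all 10 changes were negative with a median of -0.65, and 6 fell with the replicate block, Cngb1 with the smallest p (2.01-fold lower, limma adjusted p = 0.052). Rod markers called lower numbered 5 after quantile normalization again, 3 on reference-centred arrays, 3 with the mean of a gene's probe sets, 2 with 1 probe set per gene and 2 with the level filter. Cngb1 passed in each of these and with the block (limma adjusted p 0.013 to 0.0334). Their summed level was 15.43 to 15.78 and 14.99 to 15.32. Of 12 markers of the pigment epithelium, which lies against the retina and also makes VEGF-A, none passed (median 0.00, summed level 10.54 to 11.03 and 10.68 to 11.56). Rrh had the smallest p, at -0.71 (limma adjusted p = 0.267, and 0.0099 with the replicate block). Of the 12 changes 6 were positive and 6 negative. Ttr and Rdh5 changed by 0.99 and 0.82 (limma adjusted p = 0.403 and 0.29), and the block called neither. None of 5 blood cell markers passed (median -0.12, Alas2 at -0.26 with limma adjusted p = 0.872). Of these 3 lay below the lower quartile of probe sets on all 6 arrays, and 4 of the 9 listed genes were not matched, which limits what could be seen. The part of these cells in the values of Kdr and Nrp1 was not tested.

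The genes whose values were most like those of Kdr over the 6 arrays, among 16330 named genes, were Nab2, Eif2s2, Irf7, Ipo4 and Myh9, with Pearson correlations of 0.997, 0.993, 0.991, 0.990 and 0.990. Their changes were 0.70, 0.73, 1.09, 0.77 and 0.99, larger than that of Kdr. Of these only Myh9 passed the test (limma adjusted p = 0.0379), and it lost the call in 5 of the 6 fits that left out an array (up to 0.157), on reference-centred arrays (0.176) and as the mean of its probe sets (0.55, 0.0631). Irf7 missed the threshold (0.0508) and passed in 4 alternatives, with the replicate block, 1 probe set per gene, the level filter and the mean of probe sets (0.00775 to 0.0314). In all of these but the block fewer features were tested, and the change of Irf7 stayed at 1.09. Nab2, Eif2s2 and Ipo4 passed with the replicate block (0.0175, 0.0106 and 0.0101), Nab2 and Ipo4 also as the mean of their probe sets (0.0452 and 0.0255). With that mean fewer features were tested, and the change of Nab2 stayed at 0.70. The 6 arrays share the grouping, so these correlations are descriptions with no test.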

How the data were processed

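Total RNA of mouse retinas was measured on 6 Affymetrix arrays, 3 per group, grouped by sample title. The deposited log2 values were made by the authors with RMA, per the submitters' processing notes (version not given in the sources used here); RMA corrects background, quantile normalizes and summarises probe sets. The log2 scale is read from their range. They were used as deposited. Of 45101 probe sets, 64 controls were left out. GEO's platform annotation gave 1 gene for 34945, several for 932 and none for 9160; 34741 matched RefSeq (GRCm38.p6) by Entrez identifier, used for names, and 0 symbols changed. Of 216 list genes 200 were matched.

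All 45037 probe sets were fitted with limma 3.58.1 (lmFit, eBayes, no trend) in R 4.3.3, adjusted by Benjamini-Hochberg, with a threshold of 0.05. Differences within arrays were compared by exact permutation. The fit was tested on simulated data.

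Replicate numbers were taken to pair the arrays from the data, not from a label: deviations from group means correlated at 0.731, 0.618 and 0.432 for same-numbered arrays and at -0.48 to 0.00902 for others. Blocked values are given for the named genes whose call they change, and as counts or values for the lists.

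Besides the members, the genes named were per list up to 3 with the largest change past the threshold or else the 1 with the smallest p, and the 5 most like the member of smallest p. Pecam1, Cldn5, Cdh5, Sag and Gnat1 were added as defining markers. Sparc, Hey2, Vcam1, Kcnj10, Slc1a3, Glul and P2ry12 were also named, after the results were seen, as genes whose call the replicate block changed. Ttr, Rdh5 and Jag1 were likewise named after the results were seen, as genes that changed opposite to the one named from their list. Members and lists were chosen with earlier results of these data known. Alternatives were the block, 1 probe set or the mean of probe sets per gene, a level filter, 3 scalings, trended or robust eBayes, and leaving out each array.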

Additional observations from a re-analysis of the deposited data

How the results depend on the processing

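Of 279 member values under the 15 alternatives 243 kept their direction and stayed below the call, 35 turned sign and 1 passed the threshold. Kdr, all 4 Nrp1 probe sets, 1 of Flt1 (1419300_at) and 1 of Angpt2 (1448831_at) never turned, but on reference-centred arrays Kdr went from 0.44 to 0.22 and the Nrp1 probe sets to 0.04 to 0.49. With the replicate block 2109 probe sets were called in place of 458, and 1 member in place of 0 (Nrp1 1448943_at); among the vessel and hypoxia genes named, the block also brought Akt1, Hmox1, Slco1c1, Timp3, Sparc, Vcam1, Hey2 and Notch1 past the threshold. None of the 6 measured reference genes passed (median 0.21), and Actb did with the block (0.70, limma adjusted p = 0.14, and 0.0354) and after quantile normalization again (0.0484). Centring on them gave 284 calls, 167 higher and 117 lower in place of 411 and 47, with the median of all probe sets at -0.21 in place of 0.01; quantile normalization again gave 402 and 167. Calls with 1 array left out numbered 128 to 380, and no member was called in any of these.

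Centring on reference genes turned Vegfa (-0.20 for 1420909_at and -0.18 for 1451959_a_at), Vegfb (-0.02), Vegfc (-0.10 for 1419417_at and -0.15 for 1439766_x_at), Pgf (-0.10), Angpt1 (-0.15 for 1421441_at), Angpt2 (-0.16 for 1459636_at), Flt1 (-0.11 for 1454037_a_at) and Cdh5 (-0.20); this subtracts the reference genes' mean change by construction. Quantile normalization turned Vegfa (-0.10 and -0.09), Vegfc 1440739_at (0.02) and Sag (0.03). The mean of a gene's probe sets turned Vegfc (0.06), Angpt2 (-0.02), Flt1 (0.04), Cdh5 (-0.01) and Vegfa minus Flt1 (-0.01); the cause was not tested. With 1 array left out, the ranges of values that turned were -0.04 to 0.12 and -0.14 to 0.21 for Vegfa (1420909_at and 1451959_a_at), -0.04 to 0.46 for Vegfb, -0.03 to 0.17 and -0.22 to 0.22 for Vegfc (1439766_x_at and 1440739_at), -0.43 to 0.23 for Angpt1 (1439066_at), -0.24 to 0.36 for Angpt2 (1459636_at), -0.19 to 0.06 and 0.00 to 0.34 for Flt1 (1440926_at and 1454037_a_at) and -0.14 to 0.05 for Tek. They were -0.04 to 0.07 for Cdh5, -0.04 to 0.43 for Angpt2 minus Angpt1 and -0.11 to 0.39 for Angpt2 minus Tek. Dim probe sets limit what could be seen for Vegfc, Angpt1, Angpt2 and Tek.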

Other observations

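In several member probe sets, of which 4 are given here, the arrays differed more between replicate numbers than between the groups. In Vegfb, replicate 2 read 8.02 and 8.15 in dark adapted and light damaged retinas while the other arrays read 8.64 to 8.99, and in Vegfa (1451959_a_at) replicate 2 was the lowest and replicate 3 the highest of each group. Vegfc (1440739_at) had the same order, with 4.36 and 4.31 for replicate 2 and 5.24 and 5.16 for replicate 3. For Angpt2 (1459636_at) replicate 3 read 5.84 and 5.92 where the other 4 arrays read 4.93 to 5.06. The labels do not say what the numbers share, and the standard error with the replicate block was 0.10 for each of these 4 probe sets in place of 0.28, 0.21, 0.28 and 0.32. These were chosen after their values were seen.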
